A study of Mus musculus with 8 samples.

Results

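Striated muscle is the tissue of the heart and of the skeletal muscles, and the genes described here encode its contractile filaments, its calcium handling proteins, its energy supply and the heart's natriuretic peptides. The list held 47 genes, and every probe set that the array annotation assigned to 1 of them alone was taken, older gene symbols included. This gave 60 of the 12422 probe sets that are not controls, for 45 of the 8252 genes that a probe set named alone; no probe set was found for Pln and Ttn. For 14 genes there was more than 1 probe set, 29 probe sets in all.

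The arrays measured RNA of whole lung from mice of the strains C3H-HeOuJ and C3H-HeJ, which had been kept in ozone or in filtered air. The strains are close relatives. Tlr4, through which cells sense endotoxin, is functional in C3H-HeOuJ, whereas C3H-HeJ has a missense mutation in it. The 4 groups were C3H-HeOuJ in ozone, C3H-HeOuJ in air, C3H-HeJ in ozone and C3H-HeJ in air, with 2 arrays each, named 1a and 1b. All lungs were frozen in liquid nitrogen before extraction. An exposure of 72 h was stated for both C3H-HeOuJ groups and no time for C3H-HeJ, and neither the ozone concentration nor the age of the mice was given. Nothing in the labels tells whether 1a and 1b were different mice, and each p-value therefore covers the spread between these arrays alone, which may be technical.

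In a sarcomere, the repeating unit of striated muscle, thick filaments of myosin pull on thin filaments of actin, and troponin on the thin filament lets them do so when calcium is released. Heart and skeletal muscle use different genes for many of these parts, so that a probe set can be assigned to atrium, ventricle, slow or fast skeletal muscle. In mice, heart muscle runs from the left atrium along the pulmonary veins into the lung, which makes heart muscle RNA a regular component of lung RNA. Skeletal muscle is not a tissue of the lung itself. In bulk RNA, fewer cells of a type and less RNA per cell cannot be told apart.

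The regions around the transcription start of a few of the muscle genes are shown first, since muscle genes often carry recognisable short motifs there. RefSeq (GRCm38.p6) gave 49 promoters, each 250 bases before to 50 bases after the start, for 40 of the 47 genes; Tnnt3, Tnni2, Atp2a2, Cox6a2, Tcap, Sln and Myom2 were not matched. Capitals mark the motifs searched on both strands: the CArG box, which serum response factor binds, the MEF2 motif, TATAAA, and CATTCC, which factors of the TEAD family bind (GGAATG on the other strand). A TATAAA lying inside one of the longer motifs was counted for both. Myh6 is shown because it alone passed the test in any comparison, and its promoter holds no CArG box. Myl7, Myl3 and Actc1 were picked because they are heart muscle genes whose promoters hold a CArG box, and none of them passed.
Myh6, chr14:54966558-54966857, minus strand: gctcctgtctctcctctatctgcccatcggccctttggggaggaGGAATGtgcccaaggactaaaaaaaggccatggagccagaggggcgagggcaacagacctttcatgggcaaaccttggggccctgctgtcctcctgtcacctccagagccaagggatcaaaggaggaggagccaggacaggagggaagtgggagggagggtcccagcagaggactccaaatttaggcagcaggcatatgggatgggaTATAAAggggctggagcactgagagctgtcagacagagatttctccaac
Myl7, chr11:5898733-5899032, minus strand: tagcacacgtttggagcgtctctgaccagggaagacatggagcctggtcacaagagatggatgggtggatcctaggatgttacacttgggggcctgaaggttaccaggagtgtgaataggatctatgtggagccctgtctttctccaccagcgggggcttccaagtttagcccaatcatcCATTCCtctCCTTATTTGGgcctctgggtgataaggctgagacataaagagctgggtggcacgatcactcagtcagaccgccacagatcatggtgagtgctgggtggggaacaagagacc
Myl3, chr9:110763428-110763727, plus strand: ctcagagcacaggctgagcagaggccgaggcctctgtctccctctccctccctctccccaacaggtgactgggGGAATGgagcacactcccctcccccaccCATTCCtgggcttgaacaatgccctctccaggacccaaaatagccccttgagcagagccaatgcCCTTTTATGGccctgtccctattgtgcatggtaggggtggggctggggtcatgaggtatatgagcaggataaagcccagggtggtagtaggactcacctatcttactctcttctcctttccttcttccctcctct
Actc1, chr2:114052826-114053125, minus strand: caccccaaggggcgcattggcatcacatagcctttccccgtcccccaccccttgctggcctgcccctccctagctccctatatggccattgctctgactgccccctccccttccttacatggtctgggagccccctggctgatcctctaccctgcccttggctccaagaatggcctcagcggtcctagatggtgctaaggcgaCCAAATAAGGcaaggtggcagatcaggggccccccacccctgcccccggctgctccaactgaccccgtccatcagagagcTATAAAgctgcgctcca

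A CArG box lay in 8 of the 49 promoters (16.3%), those of Actc1, Acta1, Myl3, Myl7, Myh4, Myom1 and 2 of Ldb3, against 1.63% of all 32851 RefSeq promoters. The 2 Ldb3 promoters overlap and hold the same box, at -35 from 1 start and -109 from the other, so it was counted in both. The MEF2 motif lay in 2 (4.08%), those of Ttn and Mybpc3, against 0.557% of all. TATAAA was found in 12 (24.5% against 13.6%) and CATTCC in 13 (26.5% against 14.7%). These are matches of letters within the window, not sites at which binding was measured.

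Intensities are given as deposited, and values under a floor of 69.63 (6.12 on the log2 scale) were raised to the floor for the tests only. Of the 60 muscle probe sets, 39 (65.0%) lay above the floor on all 8 arrays, 17 on some arrays and 4 on none; among all probe sets 66.6% lay above it on all 8. The floor is a low level chosen from the values, not a detection call. Above the floor on all 8 arrays were 8 of 9 cardiac probe sets, 4 of 5 atrial probe sets and 5 of 7 shared by heart and slow skeletal muscle. Of the fast skeletal probe sets 7 of 15 did so, of the slow skeletal 3 of 3 and of the developmental skeletal 0 of 2. Of the probe sets for genes common to heart and skeletal muscle, 12 of 19 did so. By gene, 7 of 10 fast skeletal, 2 of 2 slow skeletal, 7 of 8 cardiac and 3 of 4 atrial genes had a probe set above the floor on all arrays. So had 5 of 6 genes shared by heart and slow skeletal muscle and 11 of 14 common to heart and skeletal muscle. Tnni2, the fast skeletal troponin I, lay below the floor on all 8 arrays, as did 1 of 2 probe sets each of Mylpf, Tnnc2 and Myh8, the perinatal myosin heavy chain. The markers of lung tissue were present on every array: Sftpc, surfactant protein C of alveolar type II cells, ranged from 39537 to 100639.

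The differences were tested with limma on log2 intensities over the 10953 probe sets with values above the floor on 2 or more arrays, and adjusted p-values are Benjamini-Hochberg values over that whole set. Of the muscle probe sets 55 were tested; the other 5 were the 4 below the floor everywhere and 1 of Ckmt2. A probe set was said to pass at an adjusted p under 0.05. In ozone, Myh6, the alpha myosin heavy chain of the mouse heart, was higher in C3H-HeOuJ than in C3H-HeJ lungs, and it was the only muscle probe set to pass in any comparison. With ozone, more muscle probe sets had a higher than a lower fitted value in C3H-HeOuJ and more a lower than a higher one in C3H-HeJ, and none passed in either strain. Both held together for 27 of the 55, Myh6 among them.

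In ozone, 1 of the 55 muscle probe sets passed between the strains, against 0.977% of all probe sets and 0.347% called higher in C3H-HeOuJ. The Myh6 intensities were 2930 and 2763 in C3H-HeOuJ ozone, 2191 and 2206 in C3H-HeOuJ air, 1568 and 1603 in C3H-HeJ ozone, and 2227 and 1709 in C3H-HeJ air. Both C3H-HeOuJ ozone arrays lay above, and both C3H-HeJ ozone arrays below, every other array. Myh6 averaged 2846 ± 118 in C3H-HeOuJ ozone and 1585 ± 24.1 in C3H-HeJ ozone (SD, 2 arrays each), 1.79-fold higher, with a log2 difference of 0.84 (SE 0.15, limma adjusted p = 0.0494). The call was narrow: leaving out any 1 of the 8 arrays ended it, with adjusted p from 0.0601 to 0.357, and the log2 difference then lay between 0.80 and 0.89. The 5'/3' ratio of actin, a measure of RNA integrity, was 0.766 and 0.756 on the C3H-HeOuJ ozone arrays, against 0.432 to 0.603 on the other 6. With that ratio as a covariate the Myh6 log2 difference was -0.13 (SE 0.49, adjusted p = 1), so that strain and RNA integrity cannot be told apart there.

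Most other muscle probe sets lay on the same side as Myh6 in ozone, without passing. The fitted difference was higher in C3H-HeOuJ for 43 of the 55 and lower for 11, with a median log2 difference of 0.37, against 0.02 over all probe sets tested. An unadjusted p under 0.05 was found for 14 (25.5%), against 18.0% of all. The median was 0.21 without array 1a of C3H-HeJ ozone and 0.15 with the actin ratio as a covariate. All C3H-HeOuJ ozone arrays lay above all C3H-HeJ ozone arrays for 25 muscle probe sets and below them for 4, where 24.4% and 21.6% of all probe sets did so. Cox6a2, a cytochrome c oxidase subunit of heart and skeletal muscle, came next to passing. It had 3215 and 3660 in C3H-HeOuJ ozone against 2045 and 2295 in C3H-HeJ ozone, a log2 difference of 0.66 (SE 0.16, limma adjusted p = 0.0921). It was followed by Csrp3, a muscle LIM protein of the Z disc, with 885 and 948 against 581 and 513 and a log2 difference of 0.75 (SE 0.21, limma adjusted p = 0.122). By role, the median log2 difference was 0.49 for the 12 energy and oxygen probe sets, 0.40 for 10 of calcium handling, 0.33 for 16 of the thick filament, 0.17 for 11 of the thin filament, 0.37 for 4 of titin and the Z disc, and 0.08 for the 2 natriuretic peptide probe sets, 1 of them higher and 1 lower.

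**Figure D1:**
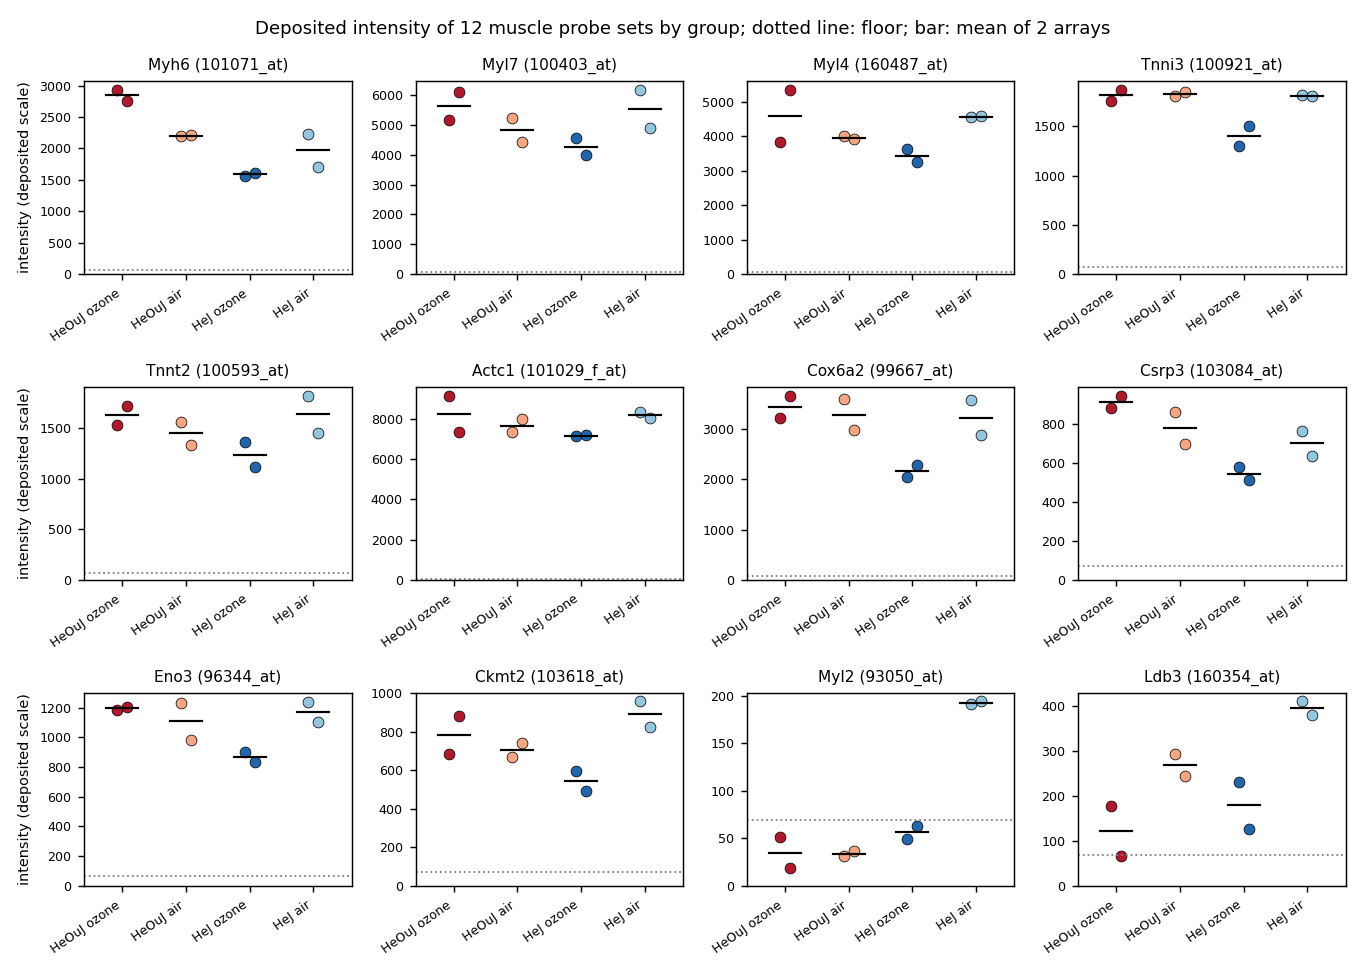
Deposited intensity (y axis, linear) of 12 muscle probe sets in the 4 groups (x axis); each point is 1 array, the bar the mean of 2 arrays and the dotted line the floor of 69.63. Both C3H-HeJ ozone arrays are the lowest for Myh6, Tnni3, Cox6a2, Csrp3, Eno3 and the probe sets shown of Myl4, Actc1 and Ckmt2. These are all 8 of the 55 tested muscle probe sets with that pattern, which other probe sets of Myl4, Actc1 and Ckmt2 do not share. Myl2 is above the floor in C3H-HeJ air only.

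With ozone in C3H-HeOuJ, none of the 55 muscle probe sets passed, against 0.456% of all probe sets, and 8 of the 55 (14.5%) had an unadjusted p under 0.05, against 15.5% of all. The fitted difference between ozone and air was higher for 36 and lower for 18, with a median log2 difference of 0.14 against 0.02 over all. The median was 0.06 without array 1b of C3H-HeOuJ air, 0.09 without array 1b of C3H-HeOuJ ozone and 0.02 with the actin ratio as a covariate. By array, the median log2 value of the tested muscle probe sets was 8.79 and 9.04 in ozone and 8.66 and 8.62 in air. The pooled SD of these array medians within groups was 0.183, larger than the median difference of 0.14. The arrays of the groups did not overlap for 13 probe sets that were higher in ozone and 6 that were lower, against 22.3% and 19.5% of all. Both ozone arrays of C3H-HeOuJ lay above the other 6 arrays for 5 muscle probe sets (9.09%), those of Myh6, Myl1, Mybpc3, Csrp3 and 1 of Cox8b; 11.9% of all probe sets did so.

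With ozone in C3H-HeJ the lean was downward. None of the 55 passed, against 0% of all probe sets, with 7 muscle probe sets (12.7%) and 4.35% of all at an unadjusted p under 0.05. The fitted difference between ozone and air was lower for 41 and higher for 13, with a median log2 difference of -0.17 against 0.01 over all. Among the 60 without the filter the median was -0.16, and without the floor it was -0.31. By array, the median log2 value of the tested muscle probe sets was 8.22 and 8.67 in ozone and 8.68 and 8.78 in air. Ozone array 1b thus lay close to the air arrays. The median difference of -0.17 was smaller in size than the pooled SD of these array medians within groups, 0.183. Both ozone arrays lay below both air arrays for 21 muscle probe sets (38.2%) and above them for 7, against 16% and 18.4% of all. Both C3H-HeJ ozone arrays lay below all other 6 arrays for 8 muscle probe sets (14.5%), against 3.52% of all: those of Myh6, Tnni3, Cox6a2, Csrp3 and Eno3, and 1 each of Myl4, Actc1 and Ckmt2. Array 1a of this group held the lowest value for 15 and array 1b for 11 of the 46 probe sets with a single lowest array, and no other array for more than 5. Among all probe sets with a single lowest array, it was 1a of this group for 8.95% and 1b for 11.0%. These counts use the same 2 arrays of C3H-HeJ ozone as the strain comparison in ozone.

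Other groups stood apart for few muscle probe sets. Both arrays of C3H-HeOuJ ozone lay below the other 6 arrays for 1 of Actc1 (9.05% of all probe sets), and both of C3H-HeJ ozone above them for 1 of Tnnt1 (3.82% of all). Both C3H-HeOuJ air arrays lay above the other 6 for 0 muscle probe sets (3.23% of all) and below them for 1 of Tnnt1 (3.41% of all). Both C3H-HeJ air arrays lay above the other 6 for Myl2 and Ldb3 (3.24% of all) and below them for 0 (2.84% of all).

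**Figure D2:**
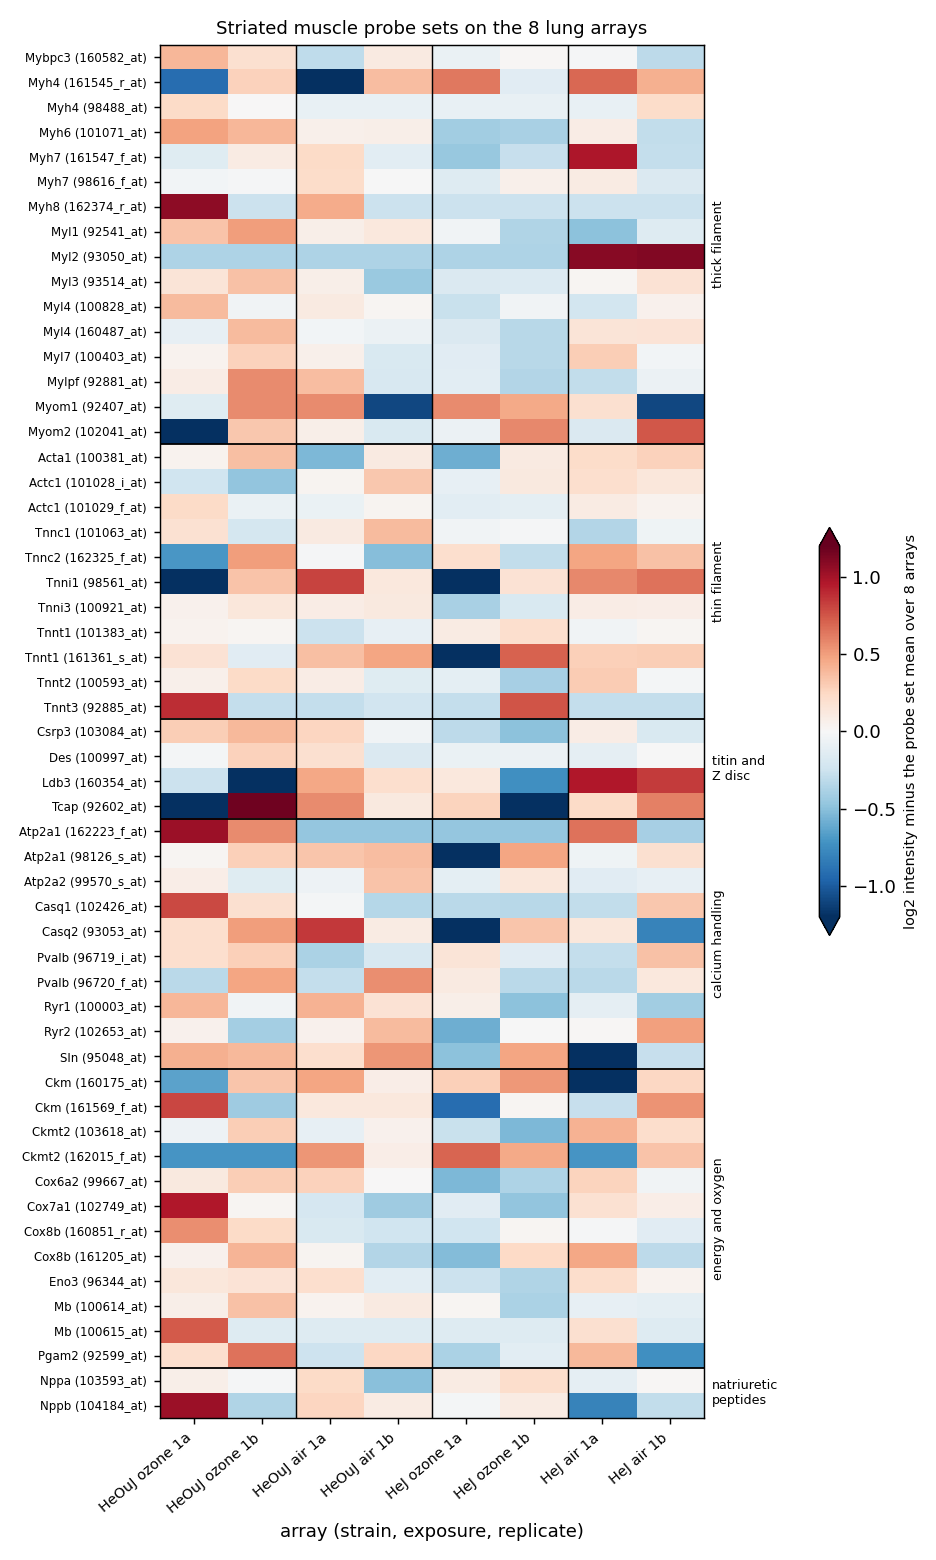
Log2 intensity of the 55 tested muscle probe sets (rows, by role) on the 8 arrays (columns), each as its difference from that probe set's mean over the arrays; red is above and blue below the mean, with colours saturating at the ends of the scale. The C3H-HeJ ozone columns hold the lowest array of 26 of 46 probe sets with a single lowest array. Among all probe sets, 1a of this group holds it for 8.95% and 1b for 11.0%. Myl2 stands out in both C3H-HeJ air columns.

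Among the thick filament genes, Myl7 and Myl4 encode the regulatory and essential light chains of the atrium, and their values on the ozone arrays of C3H-HeJ were lower than in air, without passing. Myl7 read 5180 and 6098 in C3H-HeOuJ ozone, 5250 and 4437 in C3H-HeOuJ air, 4559 and 3988 in C3H-HeJ ozone, and 6169 and 4905 in C3H-HeJ air. In C3H-HeJ, ozone and air did not overlap for Myl7, with a log2 difference of -0.37 (SE 0.17), and for 1 of 2 Myl4 probe sets, with -0.41 (SE 0.17). One of the C3H-HeOuJ air arrays read lower for Myl7 than one of the C3H-HeJ ozone arrays. In C3H-HeOuJ the corresponding log2 differences were 0.22 and 0.19. Myh7 is the beta heavy chain of heart and slow muscle. Both of its probe sets carry the suffix _f_at, so they may also detect related transcripts, and this was not tested. The brighter one read 2790 and 2822 in C3H-HeOuJ ozone, 3308 and 2830 in C3H-HeOuJ air, 2564 and 2978 in C3H-HeJ ozone, and 3049 and 2517 in C3H-HeJ air. Its log2 differences were -0.13 with ozone in C3H-HeOuJ, where the arrays did not overlap, 0.00 in C3H-HeJ and 0.02 between the strains in ozone (SE 0.15 each). The dimmer Myh7 probe set differed by -0.08, -0.71 and 0.34 (SE 0.42 each) in these comparisons. Myl3, the essential light chain of ventricle and slow muscle, differed by 0.44 with ozone in C3H-HeOuJ and by -0.27 in C3H-HeJ (SE 0.29 each). Mybpc3, the cardiac myosin binding protein C, differed by 0.39 in C3H-HeOuJ and 0.13 in C3H-HeJ (SE 0.21 each).

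Myl2, the regulatory light chain of the ventricle and of slow muscle, lay above the floor in 1 group. It read 191 and 194 in C3H-HeJ air and lay under the floor on the other 6 arrays, at 51.1 and 19 in C3H-HeOuJ ozone, 31.2 and 36.5 in C3H-HeOuJ air, and 48.8 and 63.4 in C3H-HeJ ozone. The C3H-HeJ ozone arrays were therefore at least 2.76-fold lower than the C3H-HeJ air arrays, and the C3H-HeOuJ air arrays likewise at least 2.76-fold lower. Neither difference passed (limma adjusted p = 0.434 and 0.231). These tests rest on the floor, since 6 of the 8 values entered as the same number: without the filter on dim probe sets the SE was 0.02 and both passed (adjusted p = 0.000113), while without the floor it was 0.79 and neither did (adjusted p = 0.999 and 0.721). With the floor at the 30th percentile both log2 differences were -0.52, against -1.47 at the 20th. The bound is therefore given with no call.

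Of the fast skeletal thick filament genes, Myl1 was even within groups and Myh4 was not. Myl1, the essential light chain of fast muscle, read 661 and 740 in C3H-HeOuJ ozone, 550 and 570 in C3H-HeOuJ air, 508 and 406 in C3H-HeJ ozone, and 372 and 470 in C3H-HeJ air. All 4 C3H-HeOuJ arrays lay above all 4 C3H-HeJ arrays, which held for 2 muscle probe sets, the other being 1 of myoglobin (Mb), and for 2.7% of all. Its log2 difference between the strains over both exposures was 0.52 (SE 0.18, limma adjusted p = 0.268). Myh4, the heavy chain of the fastest fibres, read on its _r_at probe set 123 and 281 in C3H-HeOuJ ozone, 91.2 and 301 in C3H-HeOuJ air, 360 and 212 in C3H-HeJ ozone, and 375 and 313 in C3H-HeJ air. Its arrays differed widely within C3H-HeOuJ, and the exposures overlapped in both strains. The other Myh4 probe set was above the floor on 3 arrays.

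The M band proteins Myom1 and Myom2, which link thick filaments at the middle of the sarcomere, varied widely within groups. Myom1 read 135 and 220 in C3H-HeOuJ ozone, 220 and 30 in C3H-HeOuJ air, 220 and 204 in C3H-HeJ ozone, and 170 and 50.3 in C3H-HeJ air. Myom2 read 22.4 and 212 in C3H-HeOuJ ozone, 178 and 150 in C3H-HeOuJ air, 162 and 253 in C3H-HeJ ozone, and 151 and 285 in C3H-HeJ air. For both genes 1 array of a group lay under the floor beside a replicate well above it, and the standard errors were 0.62 and 0.58.

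Among the thin filament genes, the cardiac troponins I and T had their lower values in C3H-HeJ ozone. Tnni3 and Tnnt2, which encode them, had log2 differences with ozone of -0.37 (SE 0.13) and -0.40 (SE 0.18) in C3H-HeJ, where ozone and air did not overlap. In C3H-HeOuJ the differences were -0.01 and 0.17. Tnni3 read 1763 and 1871 in C3H-HeOuJ ozone, 1809 and 1851 in C3H-HeOuJ air, 1304 and 1506 in C3H-HeJ ozone, and 1816 and 1805 in C3H-HeJ air, so that 6 arrays lay close together and the C3H-HeJ ozone arrays below them. Tnnc1, the troponin C of heart and slow muscle, had 0.17 in C3H-HeJ and -0.26 in C3H-HeOuJ (SE 0.18 each).

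The actin probe sets differed among themselves. Actc1, the cardiac alpha actin, was read by 2 probe sets. The suffix _f_at or _s_at marks a probe set that may also detect related transcripts, and _i_at or _r_at one designed with fewer probes or relaxed rules. In C3H-HeOuJ the _i_at probe set of Actc1 differed by -0.54 (SE 0.15) with ozone and the _f_at probe set by 0.10 (SE 0.14); in C3H-HeJ they differed by -0.16 and -0.19. Acta1, the skeletal alpha actin, differed by 0.42 in C3H-HeOuJ and -0.49 in C3H-HeJ (SE 0.34 each).

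Of the 3 slow skeletal troponin probe sets, 2 varied widely between replicates. Tnni1, the slow skeletal troponin I, read 252 and 765 in C3H-HeOuJ ozone, 1056 and 658 in C3H-HeOuJ air, 225 and 682 in C3H-HeJ ozone, and 898 and 945 in C3H-HeJ air. The 1a array was low in both ozone groups, and the log2 differences were -0.92 in C3H-HeOuJ and -1.23 in C3H-HeJ (SE 0.61 each). Tnnt1, the slow skeletal troponin T, gave 2 readings that disagreed. The _s_at probe set read 718 and 579 in C3H-HeOuJ ozone, 818 and 885 in C3H-HeOuJ air, 144 and 1042 in C3H-HeJ ozone, and 777 and 782 in C3H-HeJ air. The _at probe set read 443 and 436 in C3H-HeOuJ ozone, 361 and 402 in C3H-HeOuJ air, 461 and 496 in C3H-HeJ ozone, and 419 and 438 in C3H-HeJ air. With ozone in C3H-HeJ they differed by -1.01 (SE 0.72) and 0.16 (SE 0.25), and under the first value 1 ozone array read 144 and the other 1042.

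At the Z disc, which anchors the thin filaments, Ldb3 stood out for its range. It had the widest log2 range of group means of the tested muscle probe sets once values had been raised to the floor. Without the floor, dimmer probe sets such as Myl2 and the _f_at probe set of Atp2a1 had a larger fold range. Ldb3, also called ZASP or Cypher, binds alpha actinin at the Z disc. It read 177 and 65.3 in C3H-HeOuJ ozone, 292 and 243 in C3H-HeOuJ air, 230 and 127 in C3H-HeJ ozone, and 411 and 379 in C3H-HeJ air. Ozone lay below air in both strains, with log2 differences of -1.26 in C3H-HeOuJ and -1.21 in C3H-HeJ (SE 0.51 each, limma adjusted p = 0.284 and 1). All 4 ozone arrays lay below all 4 air arrays for Ldb3 alone among the muscle probe sets, and for 1.22% of all. Over both strains its log2 difference was -1.23 (SE 0.36, limma adjusted p = 0.372).

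Csrp3 read 885 and 948 in C3H-HeOuJ ozone, 861 and 701 in C3H-HeOuJ air, 581 and 513 in C3H-HeJ ozone, and 767 and 636 in C3H-HeJ air. Its groups had the order seen for Myh6, with C3H-HeOuJ ozone highest and C3H-HeJ ozone lowest and no overlap of either with another group. Tcap, the titin cap protein, read 104 and 614 in C3H-HeOuJ ozone, 405 and 296 in C3H-HeOuJ air, 328 and 92.3 in C3H-HeJ ozone, and 321 and 416 in C3H-HeJ air, with the replicates of both ozone groups further apart than the group means. Desmin (Des), the intermediate filament that ties Z discs together, differed by 0.12 in C3H-HeOuJ and -0.02 in C3H-HeJ (SE 0.23 each); smooth muscle also makes it.

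Among the calcium handling genes, the fast skeletal calcium pump Atp2a1 again depended on the probe set. The _f_at probe set read 195 and 142 in C3H-HeOuJ ozone, 46 and 27.5 in C3H-HeOuJ air, 23.4 and 31.6 in C3H-HeJ ozone, and 151 and 73 in C3H-HeJ air. Both C3H-HeOuJ air and C3H-HeJ ozone lay under the floor, so C3H-HeOuJ ozone was at least 2.39-fold higher than either (limma adjusted p = 0.184 and 0.147). The _s_at probe set of Atp2a1 read 309 and 369 in C3H-HeOuJ ozone, 382 and 393 in C3H-HeOuJ air, 97.9 and 421 in C3H-HeJ ozone, and 293 and 346 in C3H-HeJ air, and differed by -0.20 (SE 0.60) with ozone in C3H-HeOuJ.

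Calsequestrins bind calcium inside the sarcoplasmic reticulum. Casq1, the skeletal form, read 1093 and 723 in C3H-HeOuJ ozone, 623 and 499 in C3H-HeOuJ air, 505 and 501 in C3H-HeJ ozone, and 513 and 791 in C3H-HeJ air. Ozone lay above air in C3H-HeOuJ and below air in C3H-HeJ, with log2 differences of 0.67 and -0.34 (SE 0.29 each). Casq2, the cardiac form, read 198 and 244 in C3H-HeOuJ ozone, 310 and 185 in C3H-HeOuJ air, 38 and 217 in C3H-HeJ ozone, and 189 and 99.1 in C3H-HeJ air, and the exposures overlapped in both strains.

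Sarcolipin (Sln), an inhibitor of the calcium pump that is rich in the mouse atrium, read 221 and 216 in C3H-HeOuJ ozone, 189 and 238 in C3H-HeOuJ air, 117 and 229 in C3H-HeJ ozone, and 64.3 and 136 in C3H-HeJ air. In air both C3H-HeOuJ arrays lay above both C3H-HeJ arrays, with a log2 difference of 1.12 (SE 0.47, limma adjusted p = 0.854). The calcium pump Atp2a2, classed here with heart and slow muscle, was read by an _s_at probe set. Which tissue its signal came from was not tested. It differed by -0.17 with ozone in C3H-HeOuJ and by 0.13 in C3H-HeJ. The calcium release channels Ryr1 of skeletal muscle and Ryr2 of the heart differed by -0.12 and -0.40 in C3H-HeOuJ and by 0.05 and -0.55 in C3H-HeJ. The Ryr1 value in C3H-HeJ rests on the floor. There the ozone arrays read 103 and 29.3 and the air arrays 91.2 and 73.5, with deposited means of 66.2 and 82.4. Parvalbumin (Pvalb), the calcium buffer of fast fibres, differed by 0.53 (SE 0.21) in C3H-HeOuJ and -0.02 in C3H-HeJ on its brighter probe set, and by -0.07 and 0.00 (SE 0.41 each) on the other. Of the 10 calcium handling probe sets, 9 were higher in C3H-HeOuJ ozone than in C3H-HeJ ozone.

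Among the genes of energy and oxygen supply, creatine kinases keep ATP topped up from phosphocreatine. Ckmt2, the mitochondrial form of striated muscle, gave opposite readings. The _at probe set read 686 and 879 in C3H-HeOuJ ozone, 668 and 741 in C3H-HeOuJ air, 595 and 492 in C3H-HeJ ozone, and 956 and 826 in C3H-HeJ air. The _f_at probe set read 55 and 63.5 in C3H-HeOuJ ozone, 164 and 120 in C3H-HeOuJ air, 184 and 156 in C3H-HeJ ozone, and 64.1 and 144 in C3H-HeJ air. With ozone in C3H-HeJ they differed by -0.72 (SE 0.22) and 0.76 (SE 0.40). In C3H-HeOuJ the _f_at probe set was under the floor in ozone, at least 2.01-fold lower than in air, and the _at probe set differed by 0.14. The _f_at reading may include related transcripts, and which probe set follows Ckmt2 was not tested.

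The probe sets of Ckm, the cytosolic muscle form, disagreed too, with the higher reading in C3H-HeJ ozone on the _at probe set. The _at probe set of Ckm read 136 and 267 in C3H-HeOuJ ozone, 295 and 224 in C3H-HeOuJ air, 260 and 304 in C3H-HeJ ozone, and 87 and 253 in C3H-HeJ air. The _f_at probe set of Ckm read 229 and 97.2 in C3H-HeOuJ ozone, 143 and 143 in C3H-HeOuJ air, 44.1 and 133 in C3H-HeJ ozone, and 108 and 191 in C3H-HeJ air. With ozone in C3H-HeJ they differed by 0.92 (SE 0.56) and -0.58 (SE 0.52).

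The muscle isoforms of cytochrome c oxidase leaned upward in C3H-HeOuJ ozone. Cox7a1 read 471 and 245 in C3H-HeOuJ ozone, 210 and 180 in C3H-HeOuJ air, 220 and 174 in C3H-HeJ ozone, and 274 and 255 in C3H-HeJ air. Its log2 differences were 0.81 with ozone in C3H-HeOuJ and -0.43 in C3H-HeJ (SE 0.41 each), without overlap in either strain. The 2 Cox8b probe sets differed by 0.60 (SE 0.21) and 0.38 (SE 0.43) in C3H-HeOuJ and by -0.04 and -0.22 in C3H-HeJ. Cox6a2 differed by 0.07 in C3H-HeOuJ and by -0.57 in C3H-HeJ (SE 0.16 each). Of these 3 genes, brown fat also makes Cox7a1 and Cox8b.

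Eno3, the muscle enolase of glycolysis, read 1184 and 1206 in C3H-HeOuJ ozone, 1232 and 983 in C3H-HeOuJ air, 898 and 834 in C3H-HeJ ozone, and 1240 and 1103 in C3H-HeJ air. The C3H-HeJ ozone arrays were again the lowest, with a log2 difference to air of -0.44 (SE 0.17). Pgam2, the muscle phosphoglycerate mutase, differed by 0.43 in C3H-HeOuJ and -0.08 in C3H-HeJ (SE 0.45 each). Myoglobin, the oxygen store, differed on its brighter probe set by 0.14 in C3H-HeOuJ and -0.07 in C3H-HeJ (SE 0.20 each).

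The natriuretic peptides, hormones that the heart releases on stretch, lay higher in ozone than in air in C3H-HeJ. Nppb, the B-type peptide, read 343 and 131 in C3H-HeOuJ ozone, 202 and 181 in C3H-HeOuJ air, 166 and 181 in C3H-HeJ ozone, and 96.7 and 137 in C3H-HeJ air. In C3H-HeJ both ozone arrays lay above both air arrays, with a log2 difference of 0.59 (SE 0.48). Nppa, the atrial peptide, differed by 0.16 in C3H-HeOuJ and 0.20 in C3H-HeJ (SE 0.24 each), and its C3H-HeJ groups did not overlap either.

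**Figure D3:**
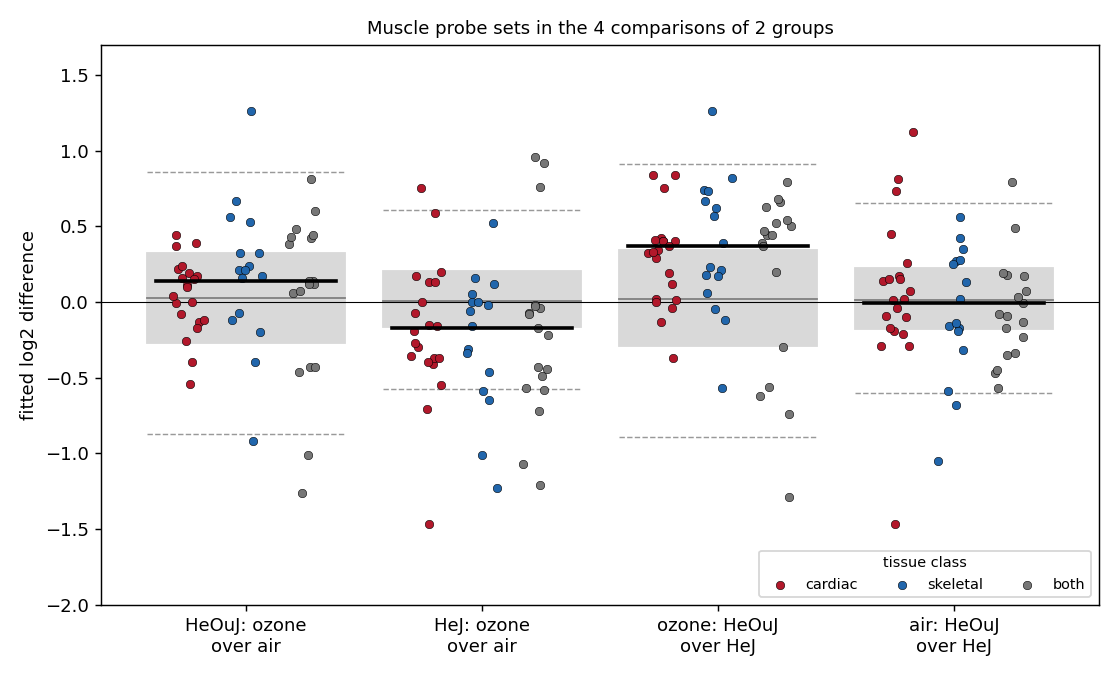
Fitted log2 differences (y axis) of the 55 tested muscle probe sets in the 4 comparisons (x axis), coloured by the muscle the gene belongs to; the thick black line is their median, the grey box the middle 50% of all 10953 probe sets with their median, and the dashed lines the 5th and 95th percentiles. The muscle medians are 0.14, -0.17, 0.37 and -0.01 from left to right.

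Whether ozone acted differently in the 2 strains was tested as an interaction, the ozone difference in C3H-HeOuJ minus that in C3H-HeJ. None of the 55 muscle probe sets passed, against 0% of all, and 10 of them (18.2%) had an unadjusted p under 0.05, against 11.4% of all probe sets. The median interaction was 0.36 against 0.02 over all, positive for 41 and negative for 14. Higher with ozone in C3H-HeOuJ and lower in C3H-HeJ were 27 of the 55 (49.1%), against 24.9% of all probe sets. The opposite pattern was found in 5 (9.09% against 25.1%), lower in both strains in 13 and higher in both in 8. The 2 ozone comparisons share no array, but each rests on 2 arrays per group. Muscle probe sets read on the same arrays are not separate observations, and the list was chosen with earlier results of these data known. Of 18 further striated muscle probe sets tested, 9 were higher and 9 lower with ozone in C3H-HeOuJ. In C3H-HeJ 10 of them were higher and 6 lower. Among the probe sets above the floor on all 8 arrays, Myh6 had the smallest interaction p, at 0.67 (SE 0.21, limma adjusted p = 0.303). Those of Myl2 and of the _f_at probe set of Atp2a1 were smaller (adjusted p = 0.223 and 0.274) but rest on arrays set to the floor.

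**Figure D4:**
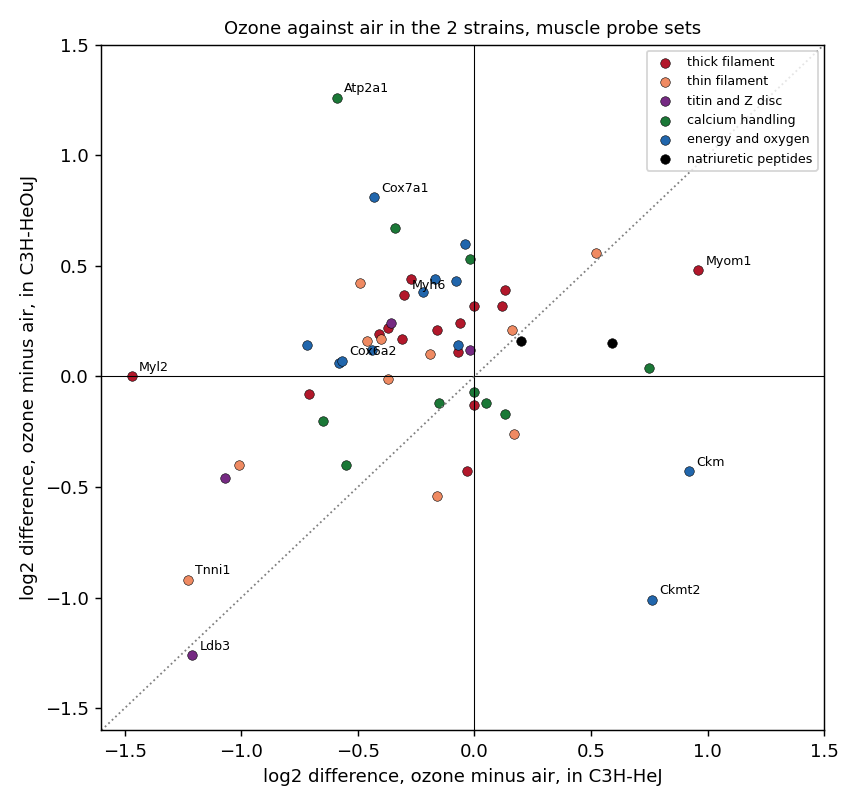
Log2 difference between ozone and air in C3H-HeOuJ (y axis) against that in C3H-HeJ (x axis) for the 55 tested muscle probe sets, coloured by role; the dotted line marks equal differences. The upper left field, which holds probe sets higher with ozone in C3H-HeOuJ and lower with it in C3H-HeJ, contains 27 points.

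In air the strains did not lean either way. The fitted difference was higher in C3H-HeOuJ for 27 muscle probe sets and lower for 28, with a median log2 difference of -0.01, and none passed, against 0.0456% of all; 3 (5.45%) had an unadjusted p under 0.05, against 5.71% of all. The arrays did not overlap for 9 that were higher and 12 that were lower in C3H-HeOuJ, against 17.1% and 15.5% of all. Averaged over both strains, ozone gave a median of -0.04 and no call, against 0.0183% of all and with 4 (7.27%) at an unadjusted p under 0.05, against 9.25% of all. Averaged over both exposures, the strain difference had a median of 0.13, higher in C3H-HeOuJ for 43 and lower for 12, and no call, against 0.155% of all and with 6 (10.9%) at an unadjusted p under 0.05, against 13.0% of all.

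The summed intensity of the 60 muscle probe sets was 58523 and 58990 in C3H-HeOuJ ozone, 56336 and 55223 in C3H-HeOuJ air, 47652 and 49788 in C3H-HeJ ozone, and 58162 and 56108 in C3H-HeJ air. The C3H-HeJ ozone arrays were the lowest, and the other 6 arrays lay close together. As a sum, immunoglobulin and other B and plasma cell genes were lowest on the same arrays. Their 21 probe sets summed to 13517 and 15374 in C3H-HeOuJ ozone, 13196 and 12431 in C3H-HeOuJ air, 9937 and 9818 in C3H-HeJ ozone, and 16494 and 16761 in C3H-HeJ air, and 16 of the 18 tested were lower with ozone in C3H-HeJ. Single genes differed: the lowest array lay in C3H-HeOuJ air for Cd79a and Cd79b and in C3H-HeOuJ ozone for Igj. For Ms4a1 it lay in C3H-HeJ ozone. Of the Ighm probe sets, 1 passed between the strains in ozone, with 2844 and 3062 in C3H-HeOuJ against 545 and 639 in C3H-HeJ and a log2 difference of 2.32 (SE 0.23, limma adjusted p = 0.0127). Another Ighm probe set, an _s_at, read 3434 and 4045 in C3H-HeOuJ ozone, 2502 and 2561 in C3H-HeOuJ air, 3609 and 3482 in C3H-HeJ ozone, and 7235 and 7226 in C3H-HeJ air, and it was lower in C3H-HeOuJ than in C3H-HeJ in air (log2 difference -1.51, SE 0.13, limma adjusted p = 0.00551). The part of B and plasma cells in the muscle differences was not tested.

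Smooth muscle of airways and vessels was summed over 6 probe sets. The sums were 8802 and 10411 in C3H-HeOuJ ozone, 10734 and 10329 in C3H-HeOuJ air, 9325 and 9859 in C3H-HeJ ozone, and 12183 and 10547 in C3H-HeJ air. With ozone, all 6 were lower in C3H-HeOuJ and 5 of 6 in C3H-HeJ, among them Acta2, smooth muscle actin, by -0.12 and -0.35, and none passed. The 5 lung epithelial probe sets summed to 218749 and 206537 in C3H-HeOuJ ozone, against 133368 to 184809 on the other 6 arrays. They did not move together. With ozone in C3H-HeOuJ, Sftpc, Scgb1a1 and Ager differed by 0.92, 0.48 and 0.27, and Sftpb and Sftpd by -0.19 and -0.80, none passing. The 2 erythroid probe sets summed to 75941 and 53944 in C3H-HeOuJ ozone, against 34351 to 46956 on the other 6 arrays. Of these, Hba-a1, a haemoglobin chain, differed by 0.81 with ozone in C3H-HeOuJ and Alas2, an enzyme of haem synthesis, by -0.08, so that the higher sum came from Hba-a1. The 5 lung endothelial probe sets summed to 14556 and 15219 in C3H-HeOuJ ozone, against 15730 to 22202 on the other 6 arrays. All 4 tested were lower in C3H-HeOuJ ozone both against C3H-HeOuJ air and against C3H-HeJ ozone, without passing, among them Pecam1, an endothelial adhesion molecule, by -1.25 and -1.06 and Tek, the angiopoietin receptor, by -0.51 and -0.48. Of 4 cartilage probe sets tested, 1 was higher with ozone in C3H-HeOuJ and 2 were lower, those of Col11a1 by -1.14 and Col2a1 by -0.55. The higher one, that of Col9a1, a chain of type IX collagen, passed. It read 1133 and 906 in C3H-HeOuJ ozone, 345 and 425 in C3H-HeOuJ air, 571 and 616 in C3H-HeJ ozone, and 634 and 654 in C3H-HeJ air, a log2 difference in C3H-HeOuJ of 1.40 (SE 0.22, limma adjusted p = 0.0464). The part of these in the muscle differences was not tested. Of the 7 fat probe sets none passed, with 6 higher in ozone in C3H-HeOuJ and 3 in C3H-HeJ.

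Further striated muscle genes that are not among the 47 were divided. Of 39 such genes, 19 had a probe set, 22 in all, and 18 were tested, of which 9 were higher and 9 lower with ozone in C3H-HeOuJ and 10 higher and 6 lower in C3H-HeJ. Their medians were 0.00 and 0.11, the median between the strains in ozone was 0.03, and none passed. The brightest was Ankrd1, a stress-responsive ankyrin repeat protein of heart muscle, with 2979 and 3286 in C3H-HeOuJ ozone, 2695 and 2395 in C3H-HeOuJ air, 3076 and 2780 in C3H-HeJ ozone, and 3381 and 2991 in C3H-HeJ air, where the C3H-HeJ exposures overlapped. The next brightest were Hrc, a calcium binding protein of the sarcoplasmic reticulum, Fabp3, the fatty acid binding protein of heart, and Fhl2, a LIM protein of heart muscle. With ozone they differed by -0.09, 0.32 and -0.62 in C3H-HeOuJ and by 0.16, -0.31 and 0.20 in C3H-HeJ. Between the strains in ozone Hrc and Fhl2 differed by -0.41 and -0.72, and Fabp3 by 0.52.

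The transcription factors of muscle were followed through 21 probe sets of 14 of 18 genes, 18 of them tested. With ozone, 11 were higher and 7 lower in C3H-HeOuJ (median 0.09), and 6 higher and 12 lower in C3H-HeJ (median -0.06), and none passed. Mef2d, Mef2a and Mef2b, members of the MEF2 family, differed by -0.21, 0.20 and 0.12 in C3H-HeOuJ and by -0.02, -0.09 and -0.19 in C3H-HeJ. Hand1, a factor of heart development, gave 2 readings that disagreed. Its brighter probe set read 826 and 860 in C3H-HeOuJ ozone, 1028 and 867 in C3H-HeOuJ air, 432 and 673 in C3H-HeJ ozone, and 897 and 867 in C3H-HeJ air, and its C3H-HeJ exposures did not overlap (log2 difference -0.71, limma adjusted p = 0.994). The _f_at probe set of Hand1 read 271 and 195 in C3H-HeOuJ ozone, 64.1 and 182 in C3H-HeOuJ air, 194 and 241 in C3H-HeJ ozone, and 278 and 220 in C3H-HeJ air. In C3H-HeOuJ the brighter probe set differed by -0.16 with ozone and the other by 1.03, and in C3H-HeJ the other differed by -0.20.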

How the data were processed

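The series held 8 arrays of whole mouse lung RNA, 2 for each of 4 groups, with groups taken from the sample titles. The deposited values are linear intensity readings. They had a 2% trimmed mean of 800.39 to 800.41 on every array, so the authors' values had been scaled to a common level; array medians were 350.1 to 384.8. The software behind them is not stated in the labels or the file headers. Of 12488 probe sets 66 controls were left out. By an annotation of 2016, 10833 probe sets had a single gene, 396 had several and 1193 had no gene.

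Values were raised to a floor at the 20th percentile, 69.63, and log2 was taken. A model of the 4 groups was fitted to the 10953 probe sets that exceeded it on 2 or more arrays, with lmFit, contrasts.fit and eBayes (trend on) of limma 3.58.1 in R 4.3.3; 1469 were too dim. There were 4 residual and 4.54 prior degrees of freedom, and the median standard error between 2 groups was 0.30. P-values were adjusted by Benjamini-Hochberg, with a threshold of 0.05. Precision is limited by having 2 arrays per group. The fit was tested on simulated data, with 100 probe sets changed 2-fold and 100 changed 4-fold. For ozone in C3H-HeJ it recovered 19% and 61% of them, with 5 false calls. For ozone in C3H-HeOuJ it recovered 22% and 53%, with 6 false calls. A probe set that did not pass may therefore still have changed.

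The muscle genes and all other gene lists were chosen with earlier results of these data known. Values on every array were given for probe sets that passed, for the 20 muscle probe sets with the widest range of group means, and for genes whose probe sets disagreed in direction by over 1 on the log2 scale; some others (among them Myl7, Myh7, Tnni3 and Eno3) were given in full after their values were seen. From each other list, probe sets that passed in a comparison described and up to 4 of highest intensity could be named; the second probe set of Hand1 was added after its values were seen. Tables and figures were made with pandas 2.3.3 and matplotlib 3.10.9 under Python 3.11.15. Repeats changed the scaling, the floor, the filter, how variance is shared, the threshold and the arrays used, or added the replicate letter or the actin 5'/3' ratio.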

Additional observations from a re-analysis of the deposited data

How the results depend on the processing

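The single muscle call between the strains in ozone (1 probe set, Myh6) became 0 with median centring, without the filter, without the variance trend, with a robust prior, with only the 2 groups compared, with array weights and with the actin 5'/3' ratio as a covariate, and 0 to 0 when any 1 array was left out; the cause was not tested. It was 2 at an adjusted p under 0.10, where Cox6a2 joined. Over 13 alternatives Myh6 passed in 6, and its log2 difference of 0.84 was reversed to -0.13 with the actin ratio. Without the filter on dim probe sets Myl2 alone passed, giving 1 call each in the ozone comparison in C3H-HeJ, the strain comparison in air, the interaction and both averages (adjusted p = 0.000113 to 0.000609); 6 of its 8 values are the floor itself, and without the floor its adjusted p was 0.999 for ozone in C3H-HeJ and 0.721 between the strains in air. The actin ratio moved the muscle median from 0.37 to 0.15 between the strains in ozone and from -0.01 to -0.25 in air. Otherwise the medians kept within the spread between arrays (0.183), and with 1 array left out they were 0.21 to 0.39 between the strains in ozone, 0.06 to 0.18 for ozone in C3H-HeOuJ, -0.20 to -0.17 for ozone in C3H-HeJ and 0.32 to 0.41 for the interaction. The letters 1a and 1b, whose meaning is not stated, were not taken to pair arrays, since deviations of same-letter arrays correlated at -0.01 to 0.138, over 0.1 in 3 of 6 pairs of groups, and with them as a replicate block there was 1 muscle call, Myh6, at an adjusted p of 0.0464. Without both C3H-HeOuJ ozone arrays, an alternative chosen after seeing the data, the C3H-HeJ ozone median was -0.17. Counts over all probe sets moved more: 0 to 434 against 107 between the strains in ozone, 0 to 244 against 50 for ozone in C3H-HeOuJ, 0 to 11 against 5 between the strains in air, 0 to 8 against 0 for ozone in C3H-HeJ, 0 to 10 against 0 for the interaction, 0 to 14 against 2 for ozone over strains and 0 to 40 against 17 for strain over exposures.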
